A study of Mus musculus with 10 samples.

Results

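Genes of platelet granules, the platelet microtubule and the megakaryocyte lineage were followed in mouse bone marrow: Pf4, Ppbp, Vwf, Selp, Thbs1, Mmrn1, Tubb1, Rab27b, Plek and Fli1. They were taken by gene symbol, and all 10 of them were found among the 55367 genes of the deposited count table. RNA came from bone marrow cells, labelled BMMC, of mice that drank either regular water or water with 1% α-ketoglutarate (α-KG), an intermediate of the tricarboxylic acid cycle. There were 5 libraries a group, called water 1 to 5 and α-KG 1 to 5 below, with numbers that pair nothing. The sources used here give no genotype, strain, age, sex or duration of treatment. They also do not tie libraries to separate animals, and the p-values cover only the variation from library to library. The series title concerns platelet activity and inflammation in myeloproliferative neoplasms.

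Megakaryocytes are the large marrow cells that shed platelets. They load secretory granules that platelets later release: α-granules hold chemokines and adhesion proteins, and dense granules hold small molecules such as ADP and serotonin. A coil of microtubules built with the β1 isotype of tubulin drives the extension of proplatelets and gives the platelet its disc shape. The transcription factors GATA1, FLI1 and NFE2 direct much of this programme.

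Library totals ran from 14291364 to 22490118 counts, and 15126 genes had enough counts to be tested, all 10 of these genes among them. The signal recognition particle RNAs Rn7s1 and Rn7s2 accounted for 7.58% to 24.2% of the counts of water libraries and for 24% to 31% of those of α-KG libraries. Levels are in counts scaled to a library of 1e+06 (CPM) after TMM scaling, and tests are the quasi-likelihood F test of edgeR with Benjamini-Hochberg adjustment over all genes tested and a threshold of 0.05. Counts divided by library totals alone moved the median log2 difference of all genes tested from 0.02 to -0.22. Marrow cell types were represented as summed levels of fixed marker lists: 3220 to 6480 CPM over 11 neutrophil genes, 20300 to 77900 CPM over 10 erythroid genes and 86.2 to 477 CPM over 10 B cell genes. The mast cell protease genes Tpsb2 and Cma1 had too few counts to be tested.

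None of the 10 genes passed over all genes tested (edgeR), where 2.73% of all genes tested were called. Tubb1, Ppbp and Fli1 had the largest positive differences, with log2 fold changes of 1.09, 0.82 and 0.46, and Vwf and Pf4 the largest negative ones, at -0.36 and -0.33. At an unadjusted p under 0.05, 4 of the 10 were reached, namely Ppbp, Tubb1, Fli1 and Vwf, against 27.8% of all genes tested. With DESeq2, 2 of the 10 were called, Ppbp and Tubb1, both higher, against 6.07% of genes called higher. The median log2 fold change of the 10 was 0.20 and 7 of them were above 0, where 51.7% of all genes tested were above 0. With library totals alone the median of the 10 was -0.10 and 4 were above 0.

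**Figure D1:**
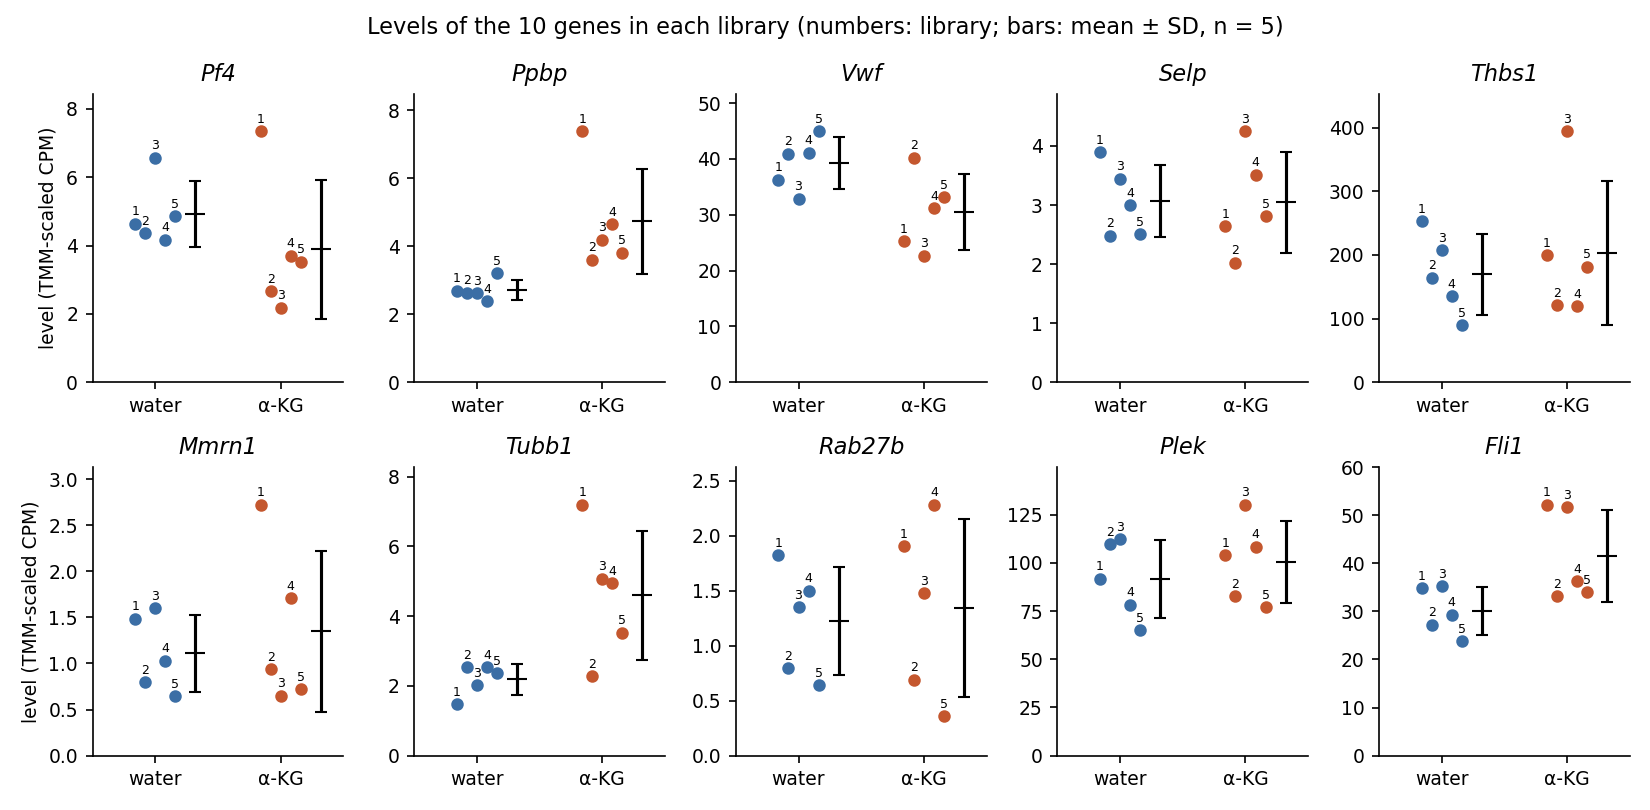
Level of each of the 10 genes in TMM-scaled CPM (vertical axes start at 0, and their scales differ) in the 5 water libraries (blue) and the 5 α-KG libraries (orange), with the library number above each point and the mean ± SD beside it. The groups are apart only for Ppbp; for Tubb1, α-KG 2 lies among the water libraries.

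The α-granule chemokine genes Ppbp and Pf4 lie side by side and had log2 fold changes of opposite sign, neither past the threshold. Ppbp encodes platelet basic protein, the precursor of a neutrophil-attracting chemokine (chromosome 5, 90768518 to 90770063, build GRCm38). Pf4 encodes platelet factor 4, a chemokine that binds heparin (chromosome 5, 90772435 to 90773383). Both are on the plus strand, with 2371 bases and 0 annotated genes between them. The 250 bases before each start site are shown because the ratio of the neighbours' counts did not overlap between the groups. No test was run on that ratio, and the pair was picked with the opposite signs known beforehand. They are the RefSeq sequences on GRCm38.p6, plus strand, chr5:90768268-90768517 for Ppbp and chr5:90772185-90772434 for Pf4:
Ppbp: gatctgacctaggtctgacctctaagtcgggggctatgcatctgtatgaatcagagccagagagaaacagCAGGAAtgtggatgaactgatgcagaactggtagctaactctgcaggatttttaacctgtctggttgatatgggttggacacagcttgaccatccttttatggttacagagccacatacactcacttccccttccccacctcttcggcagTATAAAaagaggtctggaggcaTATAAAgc
Pf4: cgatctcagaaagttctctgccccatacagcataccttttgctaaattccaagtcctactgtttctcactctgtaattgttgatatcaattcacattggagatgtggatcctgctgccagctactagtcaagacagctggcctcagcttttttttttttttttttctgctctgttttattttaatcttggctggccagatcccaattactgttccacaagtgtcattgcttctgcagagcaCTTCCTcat
Capitals mark the words searched on both strands. For GATA factors these were AGATAA as well as TGATAA. For ETS factors such as FLI1 they were CAGGAA as well as CCGGAA, along with AGGAAG as well as CGGAAG. The word for the TATA box was TATAAA. The ETS words can overlap each other, and the last 3 words were added after the letters had been read.

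Ppbp held 1 ETS word, 180 bases before the start site, and 2 TATAAA words, 30 and 8 bases before it. Pf4 held 1 ETS word, in reverse orientation, 9 bases before the start site, and 0 TATAAA words. Neither window held a GATA word. Over all 32851 promoter windows of this length, 52.3% held an ETS word, 16.6% a GATA word and 12.4% a TATAAA word. Promoter windows of 6 of the 10 genes were used: 5 held an ETS word (Pf4, Ppbp, Selp, Mmrn1 and Tubb1), 1 held a GATA word (Mmrn1) and 1 held TATAAA (Ppbp). The only ETS word of Pf4 and of Selp was AGGAAG, which like TATAAA was added after the letters had been read. The ETS and TATAAA counts therefore cannot be weighed against the shares over all windows. A match describes letters and does not show a bound site. The start sites of Pf4, Ppbp and Selp also began a stretch found in GENCODE transcripts, whereas those of Mmrn1, Tubb1 and Plek did not, so the windows of these last 3 may not sit at the start used in marrow.

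Ppbp was at 2.69, 2.63, 2.63, 2.39 and 3.22 CPM in water 1 to 5 and at 7.39, 3.60, 4.19, 4.66 and 3.81 CPM in α-KG 1 to 5. Every α-KG library was above every water library, as in 3.64% of all genes tested, and α-KG 1 was far above the other α-KG libraries. The mean level was 2.71 ± 0.305 CPM in water against 4.73 ± 1.54 in α-KG (SD, n = 5; log2 fold change 0.82 ± 0.21 SE, edgeR adjusted p = 0.0577). The log2 fold change was 0.58 without α-KG 1 (edgeR adjusted p = 0.110) and 0.90 without α-KG 2 (edgeR adjusted p = 0.0193), and 0.80 with DESeq2 (adjusted p = 0.0208). Counts of Ppbp ran from 45 to 190 per library, so counting error alone is a sizeable part of each value.

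Pf4 was at 4.64, 4.37, 6.57, 4.17 and 4.86 CPM in water 1 to 5 and at 7.35, 2.67, 2.18, 3.71 and 3.53 CPM in α-KG 1 to 5. In α-KG, 4 of the 5 libraries were below every water library and α-KG 1 was above all of them. The mean was 4.92 ± 0.959 CPM in water against 3.89 ± 2.03 in α-KG (SD, n = 5; log2 fold change -0.33 ± 0.29 SE, edgeR adjusted p = 0.468). Without α-KG 1 the log2 fold change was -0.73 (edgeR adjusted p = 0.102). The group difference of Pf4 therefore depended on 1 library for its size, and it was not detectable against the spread in either fit.

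The ratio of Ppbp to Pf4 counts within a library does not depend on how libraries are scaled. It was 0.580, 0.602, 0.400, 0.573 and 0.662 in water 1 to 5 and 1.005, 1.35, 1.92, 1.26 and 1.08 in α-KG 1 to 5. Pf4 had the larger count in every water library, and Ppbp the larger count in every α-KG library. The gap was within counting error in α-KG 1 (190 against 189) and α-KG 5 (53 against 49). Raw counts also do not rank the 2 genes, because their exon lengths differ (1083 bases for Ppbp, 721 for Pf4). Per kilobase of exon, Pf4 remained above Ppbp in the α-KG mean, at 5.39 against 4.37 CPM. The mean ratio was 0.563 ± 0.0978 in water against 1.32 ± 0.360 in α-KG (SD, n = 5). α-KG 1, highest for both genes, and α-KG 2, among the lowest of its group for both, lay on the same side of the water libraries in this ratio. The ratios of 45 pairs of the 10 genes were compared, and the groups did not overlap for 4 of them (8.89%), against 4.54% of 14806 pairs of neighbouring genes tested over the genome. The 45 pairs reuse the same 10 genes, and all 4 hold Ppbp or Tubb1, so these shares come from unlike sets of pairs. No test was run on these ratios, because the opposite signs of Ppbp and Pf4 were known beforehand. Protein-coding transcripts of Pf4 and Ppbp in GENCODE shared 0 words of 31 bases, so reads of that length or longer that match exactly can be told apart. Counts of Pf4 ran from 37 to 189 per library.

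The other 3 pairs whose ratios were apart also had Ppbp or Tubb1 on 1 side and Pf4, Vwf or Selp on the other. Tubb1 to Pf4 was 0.308 to 0.607 in water and 0.852 to 2.32 in α-KG. Ppbp to Vwf was 0.0582 to 0.0799 in water and 0.0897 to 0.292 in α-KG. Tubb1 to Selp was 0.382 to 1.02 in water and 1.11 to 2.73 in α-KG. Ppbp to Tubb1 overlapped, at 0.944 to 1.81 in water and 0.826 to 1.59 in α-KG.

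**Figure D2:**
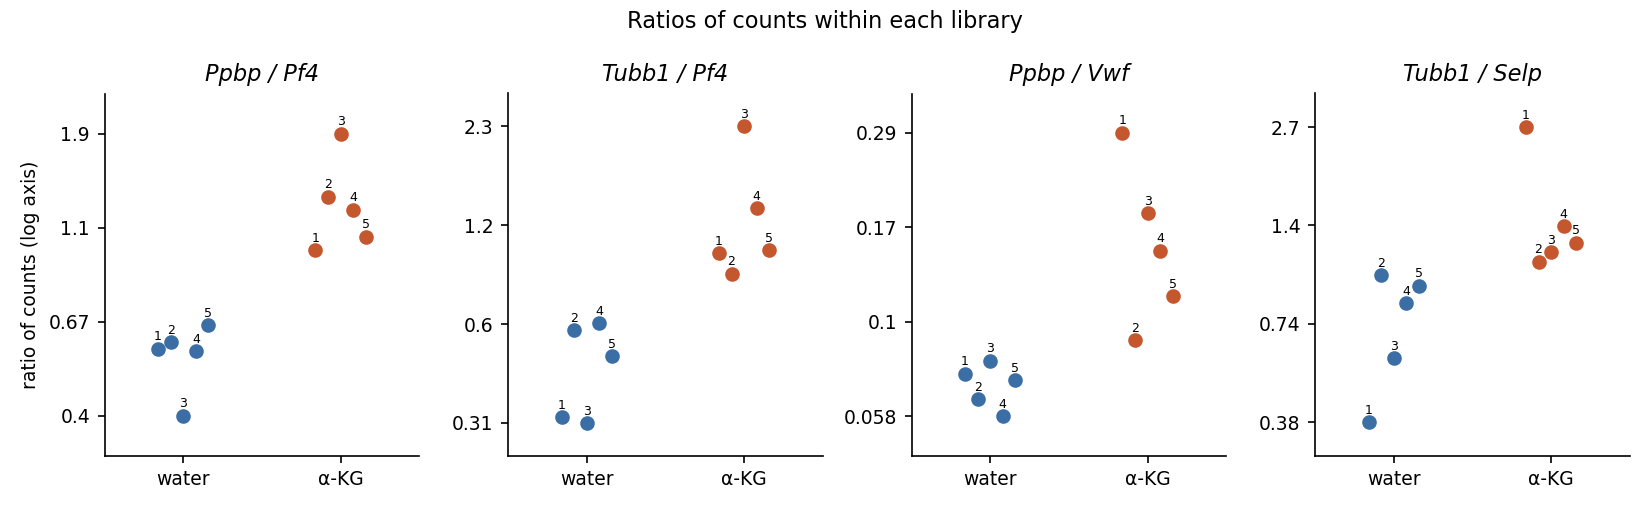
Ratio of counts within each library (log axes) for the 4 of 45 pairs of the 10 genes whose groups did not overlap, in water (blue) and α-KG (orange), with library numbers above the points. Ppbp to Pf4 lies at 0.400 to 0.662 in water and at 1.005 to 1.92 in α-KG.

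The adhesive proteins of the α-granule showed no common direction. Vwf encodes von Willebrand factor, which tethers platelets to damaged vessels and is also made by endothelial cells (chromosome 6, 125546774 to 125686679). It was at 36.3, 41.0, 32.9, 41.1 and 45.0 CPM in water 1 to 5 and at 25.3, 40.2, 22.7, 31.2 and 33.1 CPM in α-KG 1 to 5. In α-KG, 3 libraries were below the lowest water library, while α-KG 2 and α-KG 5 lay within the water range. The mean was 39.2 ± 4.70 CPM in water against 30.5 ± 6.88 in α-KG (SD, n = 5; log2 fold change -0.36 ± 0.16 SE, edgeR adjusted p = 0.156). Without α-KG 2 the log2 fold change was -0.49 and passed the threshold (edgeR adjusted p = 0.0410). Over the 10 libraries Vwf ran against Fli1 (Pearson's r of log2 CPM -0.957). The ratio of Vwf to Fli1 counts overlapped between the groups, at 0.934 to 1.89 in water and 0.439 to 1.21 in α-KG.

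Selp encodes P-selectin, stored in the α-granule membrane and shown on the surface of activated platelets and endothelium (chromosome 1, 164115264 to 164150026). It ranged from 2.48 CPM in water 2 to 3.90 in water 1, and from 2.02 CPM in α-KG 2 to 4.25 in α-KG 3. The groups covered almost the same range, with log2 fold change -0.03 ± 0.22 SE (edgeR adjusted p = 0.942), a sign that differed between scalings and left-out libraries. Its deposited counts are not whole numbers in any library, and exons of Gm16587 and Gm16548 overlap its exons on the opposite strand.

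Thbs1 encodes thrombospondin 1, an adhesive protein that megakaryocytes and also monocytes make (chromosome 2, 118111876 to 118127133). It was at 253, 164, 208, 135 and 89.1 CPM in water 1 to 5 and at 200, 121, 394, 119 and 181 CPM in α-KG 1 to 5. α-KG 3 was the highest of all and water 5 the lowest, below every α-KG library, and between them the groups overlapped. The log2 fold change was 0.26 ± 0.36 SE (edgeR adjusted p = 0.644), and -0.13 without α-KG 3 (edgeR adjusted p = 0.817). It was also below 0 with library totals alone. Gm29233 overlaps its exons on the opposite strand.

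Mmrn1 encodes multimerin 1, which carries coagulation factor V in the α-granule (chromosome 6, 60924976 to 60989378). It was scarce, at 0.643 to 1.60 CPM in the water libraries and 0.649 to 2.72 in α-KG, from 9 to 70 counts per library. The highest value was in α-KG 1 and the lowest in water 5. The log2 fold change was 0.27 ± 0.41 SE (edgeR adjusted p = 0.685), and -0.23 without α-KG 1 (edgeR adjusted p = 0.750), so its sign rested on that library.

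Tubb1, which encodes β1-tubulin of the platelet microtubule coil, had the largest difference of the 10 (chromosome 2, 174450695 to 174457882). It was at 1.48, 2.53, 2.03, 2.53 and 2.36 CPM in water 1 to 5 and at 7.19, 2.27, 5.08, 4.94 and 3.53 CPM in α-KG 1 to 5. The water libraries lay close together, and 4 of the 5 α-KG libraries were above all of them, with α-KG 2 inside the water range. The mean was 2.19 ± 0.444 CPM in water against 4.60 ± 1.85 in α-KG (SD, n = 5; log2 fold change 1.09 ± 0.28 SE, edgeR adjusted p = 0.0584). It passed the threshold with DESeq2 (log2 fold change 1.06, adjusted p = 0.0162), with no filter on low counts (1.05, edgeR adjusted p = 0.0244) and without α-KG 2 (1.27, edgeR adjusted p = 0.00886). Over all 19 alternatives its log2 fold change stayed between 0.85 and 1.27, and it passed in 3 of them. Its adjusted p was 0.114 without α-KG 1 and at most 0.139, without water 4 (edgeR). Its counts ran from 33 to 185 per library.

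Other β-tubulin genes, some of them used by most dividing cells, had differences of either sign. Tubb5 and Tubb4b were the most abundant per length, at 118 and 95.3 CPM per kilobase of exon over all libraries, where Tubb1 was at 2.41. Tubb4b was at 257 ± 59.0 CPM in water against 141 ± 57.8 in α-KG (SD, n = 5; log2 fold change -0.86 ± 0.28 SE, edgeR adjusted p = 0.0898). Tubb5 and Tubb2a were at -0.57 and -0.61 (edgeR adjusted p = 0.139 and 0.123), and Tubb4a and Tubb6 at 0.68 and 0.53 (edgeR adjusted p = 0.106 and 0.175). The ratio of Tubb1 to Tubb5 counts was 0.00254 to 0.00682 in water and 0.00564 to 0.0279 in α-KG, so 4 of the 5 α-KG libraries were above all water libraries. Coding transcripts of Tubb1 shared 0 words of 31 bases with those of the 7 other β-tubulin genes compared.

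Rab27b encodes a small GTPase needed for dense granules and for granule release in platelets (chromosome 18, 69979131 to 70141605). It had the lowest level of the 10 per kilobase of annotated exon, and 5 to 59 counts per library. The level was 0.643 to 1.82 CPM in water and 0.360 to 2.28 in α-KG. The α-KG libraries held both the highest value, in α-KG 4, and the lowest, in α-KG 5. The log2 fold change was 0.09 ± 0.44 SE (edgeR adjusted p = 0.906), with a sign that differed between settings, and at this depth a difference of 1.5-fold in either direction lies within 2 SE.

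Plek encodes pleckstrin, a substrate of protein kinase C that is abundant in platelets and also present in other white blood cells (chromosome 11, 16971206 to 17052381). It was at 65.2 to 112 CPM in water and 77.0 to 130 in α-KG, with overlapping groups (log2 fold change 0.13 ± 0.19 SE, edgeR adjusted p = 0.653), and below 0 with library totals alone. Cnrip1 overlaps its exons on the opposite strand.

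Fli1 encodes an ETS transcription factor that drives megakaryocyte genes and is also active in lymphoid and endothelial cells (chromosome 9, 32422204 to 32542861). It was at 34.9, 27.2, 35.2, 29.3 and 23.8 CPM in water 1 to 5 and at 52.2, 33.2, 51.7, 36.3 and 34.0 CPM in α-KG 1 to 5. All α-KG libraries were above the water mean, and α-KG 2 and α-KG 5 lay within the water range. The mean was 30.1 ± 4.94 CPM in water against 41.5 ± 9.60 in α-KG (SD, n = 5; log2 fold change 0.46 ± 0.17 SE, edgeR adjusted p = 0.111). It was above 0 in all 19 alternatives, at 0.22 to 0.53, and passed in none of them (edgeR, limma voom and DESeq2, smallest adjusted p = 0.0501).

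**Figure D3:**
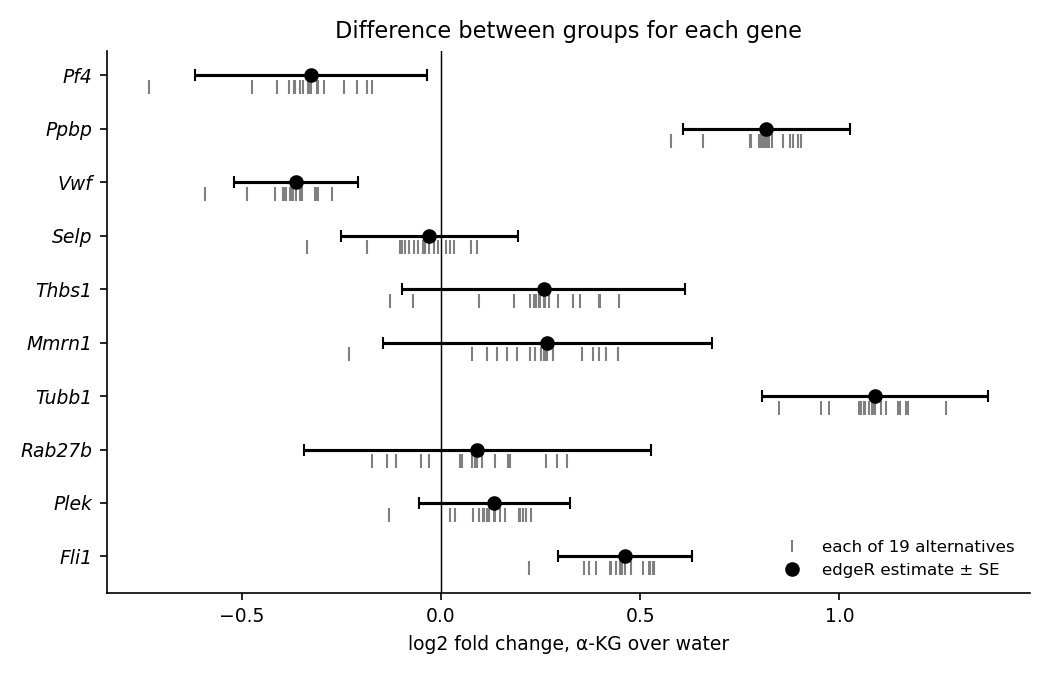
Log2 fold change (α-KG over water) of each of the 10 genes with its standard error (black) and, as grey ticks below it, its values under 19 alternative settings. Ppbp, Tubb1 and Fli1 stay above 0 and Pf4 and Vwf below 0 in all of them, while Selp, Thbs1, Mmrn1, Rab27b and Plek change sign in at least 1.

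Per kilobase of exon in the GENCODE annotation, Thbs1 was the most abundant of the 10, at 30.7 ± 14.5 CPM (SD over 10 libraries), then Plek at 21.4 ± 4.49 and Fli1 at 10.3 ± 2.69. Pf4 followed at 6.11 ± 2.21, Ppbp at 3.44 ± 1.38, Tubb1 at 2.41 ± 1.28 and Vwf at 2.17 ± 0.449. Selp was at 0.693 ± 0.159, Mmrn1 at 0.209 ± 0.112 and Rab27b at 0.120 ± 0.0593. The length used was the union of all annotated exons of a gene, 16064 bases for Vwf and 10679 for Rab27b. A transcript can be shorter than this union, so the order depends on the annotation. Neighbours in this order whose mean ± SD overlapped were Thbs1 and Plek, Fli1 and Pf4, Pf4 and Ppbp, Ppbp and Tubb1, Tubb1 and Vwf, and Mmrn1 and Rab27b. The 3 most abundant are genes that other blood cells also express.

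Across the 10 genes, α-KG 1 was the highest library for 5 (Pf4, Ppbp, Mmrn1, Tubb1 and Fli1) and α-KG 3 for 3 (Selp, Thbs1 and Plek). Water 5 was the lowest for 4 (Thbs1, Mmrn1, Plek and Fli1), although it was the highest for Vwf. Within the α-KG group, α-KG 2 was the lowest for 4 genes. No single library was high or low for all of the 10.

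Other genes of the platelet and megakaryocyte programme came from 6 lists of 120 genes without these 10. Of the 117 tested, 5 rose and 0 fell over all genes tested (edgeR), where 2.39% of all genes rose and 0.344% fell. Their median log2 fold change was 0.24 and 86 were above 0, against 0.011 and 60 with library totals alone. The medians of the secretion, cytoskeleton and transcription factor lists given below were under 0 with library totals alone, at -0.11, -0.13 and -0.13. With that scaling the dense granule list had a median of 0.033 with 12 of 20 above 0, the surface receptor list 0.069 with 12 of 20, and the α-granule list 0.41 with 13 of 16. At an unadjusted p under 0.05 (edgeR, TMM scaling), 34 of the 117 were higher and 12 lower. Of all genes tested, 16.3% were higher and 11.5% lower at that level. The α-granule list had 8 higher and 0 lower, and the dense granule list 7 higher and 1 lower. The cytoskeleton list had 6 higher and 5 lower, and the transcription factor list 6 higher and 1 lower. The lists were chosen with earlier results of these data known.

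Of 16 tested genes of α-granule cargo and assembly, 2 rose and 15 were above 0 (median 0.55). Fn1, encoding fibronectin, was at 157 ± 22.5 CPM in water against 408 ± 124 in α-KG (SD, n = 5; log2 fold change 1.38 ± 0.24 SE, edgeR adjusted p = 0.0184), and the chemokine gene Cxcl12 was the other. Both proteins are also made by other cells, Fn1 by macrophages and stroma and Cxcl12 by marrow stroma. Nbeal2, needed to form α-granules, was at 0.33 ± 0.16 (edgeR adjusted p = 0.193), and the proteoglycan gene Srgn, which retains Pf4 in granules, at 0.11 ± 0.17 (edgeR adjusted p = 0.687).

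Of 20 dense granule assembly genes, 1 rose and 18 were above 0 (median 0.28). Hps3, a subunit of a complex mutated in Hermansky-Pudlak syndrome, was at 16.7 ± 2.72 CPM in water against 27.5 ± 4.76 in α-KG (SD, n = 5; log2 fold change 0.71 ± 0.15 SE, edgeR adjusted p = 0.0309). Rab32, a GTPase of dense granule biogenesis, was at 0.69 ± 0.17 (edgeR adjusted p = 0.0536), and Rab27a, the close relative of Rab27b, at 0.36 ± 0.16 (edgeR adjusted p = 0.173). Of 19 tested genes of the secretion machinery, 0 passed and 12 were above 0 (median 0.13). At an unadjusted p under 0.05 (edgeR), 6 were reached, 2 higher and 4 lower, against 27.8% of all genes tested. Rasgrp2, the activator of the GTPase Rap1, was at 0.61 ± 0.17 and Napa, which recycles SNARE proteins, at -0.45 ± 0.14 (edgeR adjusted p = 0.0662 and 0.0815).

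Of 25 tubulin and proplatelet cytoskeleton genes, 1 rose and 15 were above 0 (median 0.11). Tpm4, a tropomyosin of the platelet cytoskeleton, was at 31.5 ± 4.18 CPM in water against 53.9 ± 13.1 in α-KG (SD, n = 5; log2 fold change 0.78 ± 0.17 SE, edgeR adjusted p = 0.0359). Myl9, a myosin light chain, was at 1.24 ± 0.37 (edgeR adjusted p = 0.0768).

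Of 17 megakaryocyte transcription factor genes, 1 rose, Gata2, which is also expressed in stem cells and mast cells, and 10 were above 0 (median 0.10). Gata2 was at 1.04 ± 0.24 (edgeR adjusted p = 0.0448). Of 6 tested mast cell and basophil markers other than Gata2, all were above 0 and 0 passed (edgeR, 1 at an unadjusted p under 0.05; median 0.61), with a summed level of 111 to 220 CPM in water and 143 to 261 CPM in α-KG. Of 7 tested stem and progenitor markers, all were above 0 and 0 passed (edgeR, 1 at an unadjusted p under 0.05; median 0.29), with a summed level of 26.1 to 40.0 CPM in water and 34.3 to 42.7 CPM in α-KG. Of these markers, Kit is on both lists and Meis1 is also a listed megakaryocyte factor, none of the tested ones was at 0 throughout, and the part of these cells in the value of Gata2 was not tested. Mrtfa, a coactivator of serum response factor, was at 0.52 ± 0.15 (edgeR adjusted p = 0.0699). Gata1 and Nfe2, shared with the erythroid lineage, were at -0.85 ± 0.43 and -0.55 ± 0.41 (edgeR adjusted p = 0.216 and 0.388), opposite in sign to Fli1. Of 10 tested erythroid markers, 3 were above 0 (median -0.66), and the part of erythroid cells in the values of Gata1 and Nfe2 was not tested.

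Of 20 platelet surface receptor genes, 0 passed and 16 were above 0 (median 0.25). At an unadjusted p under 0.05 (edgeR), 6 were reached, 5 higher and 1 lower, against 27.8% of all genes tested. The summed level of the 20 genes was 135 to 161 CPM in water and 151 to 205 CPM in α-KG. Fcer1g, an adaptor of the collagen receptor that other myeloid cells share, was at 0.57 ± 0.16 and the collagen receptor subunit gene Itga2 at 0.83 ± 0.26 (edgeR adjusted p = 0.0642 and 0.0852). The members of the von Willebrand receptor complex stood close to 0 or differed in sign. Gp1ba was at -0.04, Gp5 at 0.06, Gp9 at -0.35 ± 0.15 and Gp1bb at 0.60 ± 0.47 (edgeR adjusted p = 0.157 to 0.930). Gp9 was the 1 gene of the 20 whose groups did not overlap, at 3.55 ± 0.241 CPM in water against 2.78 ± 0.347 in α-KG (SD, n = 5). Itga2b and Itgb3, the fibrinogen receptor, were at 0.27 and 0.24 (edgeR adjusted p = 0.191 and 0.315).

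**Figure D4:**
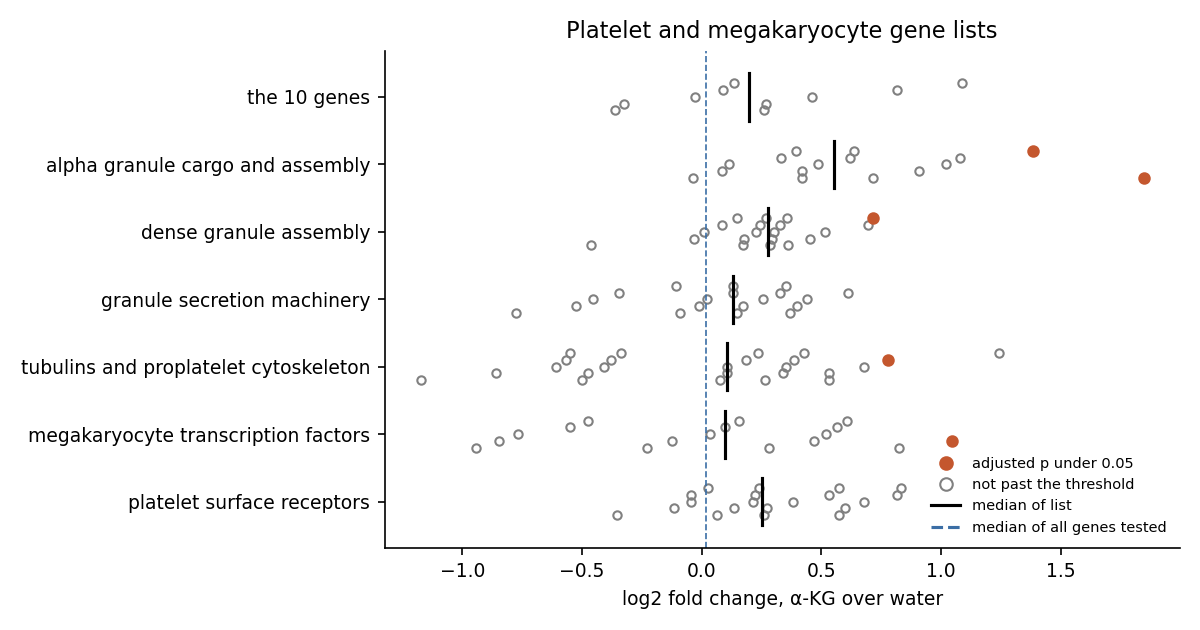
Log2 fold change (α-KG over water) of the 10 genes and of the tested genes of 6 platelet and megakaryocyte lists, 1 circle per gene, filled where the edgeR adjusted p was under 0.05, with the median of each list (black line) and of all genes tested (dashed line). Filled circles are Fn1, Cxcl12, Hps3, Tpm4 and Gata2; none of the 10 genes is filled.

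Markers of other cell types that express some of these genes were compared in the same libraries. All 12 monocyte and macrophage markers were above 0 and 11 of them rose (edgeR), with a summed level of 227 to 309 CPM in water and 319 to 632 CPM in α-KG and a median log2 fold change of 1.16. None of the 12 was at 0, and their part in the values of Thbs1, Plek, Fli1, Fn1 and Fcer1g was not tested. Of 12 endothelial markers, 10 were tested, all above 0, and 0 passed (edgeR, 3 at an unadjusted p under 0.05; median 0.49). Their summed level was 26.2 to 35.1 CPM in water and 27.3 to 57.3 CPM in α-KG, and the defining gene Cdh5 was at 0.14 ± 0.22 (edgeR adjusted p = 0.702). The part of endothelial cells in the values of Vwf, Selp, Mmrn1 and Fli1 was not tested. All 10 T and NK cell markers were above 0 (median 0.88) and 2 rose, Cd3e and Il2rb (edgeR), with a summed level of 21.1 to 30.7 CPM in water and 24.1 to 54.0 CPM in α-KG. Of 10 tested B cell markers, 8 were above 0 and 0 passed (edgeR, median 0.42). Their summed level was 116 to 210 CPM in water and 86.2 to 477 CPM in α-KG, highest in α-KG 1. The part of T, NK and B cells in the value of Fli1 was not tested. Of 5 tested stromal and bone cell markers outside the platelet lists, 3 were above 0 (median 0.041), with a summed level of 33.8 to 187 CPM in water and 31.2 to 65.0 CPM in α-KG. Kitl, the stem cell factor gene, rose at 1.99 ± 0.42 (edgeR adjusted p = 0.0328), and the collagen gene Col1a1 was at -1.64 ± 0.42 (edgeR adjusted p = 0.0577). The part of stromal cells in the values of Cxcl12 and Fn1 was not tested. With library totals alone the medians of the monocyte, T and NK, mast cell, B cell, endothelial and stem cell lists stayed above 0. They were 0.93, 0.60, 0.54, 0.32, 0.28 and 0.076, the mast cell list with Gata2 included. In bulk marrow, fewer cells of a type and less RNA per cell cannot be told apart.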

How the data were processed

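The authors deposited expected counts (estimated counts) per gene, unscaled between libraries; 10.3% of the values are not whole. Per the labels' protocols, ribosomal RNA was removed by RNase H. The submitters' processing notes name bcl2fastq, DRAGEN and GRCm38; their versions, the annotation and the strandedness of counting are not stated there. Counts were rounded, filtered with filterByExpr of edgeR 4.0.16 (minimum count 10, minimum total 15), scaled by TMM and tested two-sided with the robust quasi-likelihood F test in R 4.3.3. Standard errors are the absolute log2 fold change over the square root of F. Alternatives used other scalings and filters, DESeq2 1.42.0, limma 3.58.1 (voom) and each library left out. The steps were tested on simulated data. Positions and exon lengths came from GENCODE M21 (GRCm38), promoters from RefSeq (GRCm38.p6). Promoters of 6 of the 10 genes were used, and the search left out chromosome 18, where Rab27b lies, without a recorded reason. Mkl1 was looked up as Mrtfa. The genes and lists were chosen with earlier results of these data known. Named were the 10 genes, the genes past the threshold and the 2 smallest p of each list, and the 3 genes most like Pf4, Ppbp, Tubb1 and Vwf; other list genes and the β-tubulins were named after their values were seen. No library was a repeat of another by its counts (chi-square per degree of freedom 34.1 to 440 for pairs within a group).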

Additional observations from a re-analysis of the deposited data

Results flagged for a closer look

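In 2 of the 20 sets of 5 libraries (10 genes in each group), 1 library stood apart from the other 4 by a gap above Dixon's 95% critical value, which chance gives in about 1 of 20 sets. Pf4 was at 6.57 CPM in water 3, where the other water libraries were at 4.17 to 4.86. Ppbp was at 7.39 CPM in α-KG 1, where the other α-KG libraries were at 3.60 to 4.66.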

How the results depend on the processing

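Ppbp, Tubb1, Fli1, Pf4 and Vwf kept their sign in all 19 alternatives. Small differences did not. Selp was at 0.033 with upper quartile scaling and ran from -0.18 to 0.090 with 1 library left out, above 0 without water 1 (0.075), water 3 (0.022), α-KG 1 (0.013) or α-KG 2. Rab27b was at -0.17 with library totals and -0.11 with limma voom, and ran from -0.14 to 0.32, below 0 without water 2 (-0.029), water 5 (-0.050), α-KG 1 (-0.11) or α-KG 4. Thbs1 was at -0.069 and Plek at -0.13 with library totals. With 1 library left out Thbs1 ran from -0.13 (without α-KG 3) to 0.45 and Mmrn1 from -0.23 (without α-KG 1) to 0.44. Of the 10 genes, 1 was called with no filter on low counts, 2 with DESeq2 and 0 to 3 with 1 library left out, the 3 (Ppbp, Tubb1 and Vwf) without α-KG 2.

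Over all genes, edgeR called 413 (361 higher, 52 lower). Library totals alone gave 1159 (117 higher, 1042 lower; 10.1% higher against 87.4%), DESeq2 1657 (969 and 688; 58.5% higher) and limma voom 267 (225 higher). Lower calls were 100 with upper quartile scaling, 90 with protein-coding genes alone and 154 with no filter (73.5% higher). Leaving out 1 library gave 0 to 2683 calls (0 to 1610 higher, 0 to 1073 lower; edgeR). The count was 0 in 4 of these fits (water 1, 2 and 4 and α-KG 4), where 3232 to 3672 genes had an unadjusted p under 0.05. It was 37, 72, 139, 149, 632 and 2683 on leaving out α-KG 3, water 5, α-KG 1, α-KG 5, water 3 and α-KG 2. Of the listed platelet and megakaryocyte genes, 11 were called with library totals, 20 with DESeq2 and 0 to 30 with 1 library left out; the count was also 0 without α-KG 3. The cause was not tested. No paired analysis was possible because no label pairs the libraries. Counts of 5 to 190 per library limit the precision of Pf4, Ppbp, Selp, Mmrn1, Tubb1 and Rab27b.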

Other observations

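The genes whose levels most resembled 4 of the platelet genes over the 10 libraries were listed by Pearson's r of log2 CPM, as a description in which all points share their libraries and scaling. For Tubb1 they were Palld (r = 0.965), which encodes the actin-binding protein palladin, Tspan9 (0.958), a tetraspanin gene, and Osbpl5 (0.957). For Ppbp they were Slc9a7 (0.976), Prr12 (0.964) and Ift172 (0.962). For Pf4 they were Snhg12 (0.906), Hivep1 (0.865) and Neil1 (0.847), and for Vwf Atp2a2 (0.982), Nek8 (0.979) and Vars (0.977). None of these 12 was in the 6 platelet and megakaryocyte lists, and 0 of them passed over all genes tested (edgeR adjusted p = 0.0577 to 0.884). Between platelet genes themselves, Ppbp and Tubb1 were the most alike of the 45 pairs (r = 0.878) and Vwf and Fli1 the least (r = -0.957).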
